A study of Mus musculus with 5 samples.

Results

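The RNA of cells washed from the peritoneal cavity of wild-type (WT) mice given PBS (phosphate-buffered saline) is described here from 1 of the 5 libraries of the study, the only library of its group. The mice were C57BL/6 and 8 weeks old, the cells were collected by lavage with PBS, and RNA from 1000000 cells was sequenced by Smart-seq2, a low-input method that copies polyadenylated RNA over its full length. The route of PBS, the time before collection and the number of mice behind the library are not stated in the labels. Against the labelled tissue, marker genes of both main resident cell types of the cavity were present, and those of fibroblasts were listed at 0 or low. The other 4 libraries came from WT and Irf8KO mice given pristane and enter no comparison below. With 1 library there was no replicate, so no value has a replicate error and no test was possible. Levels are given in FPKM (fragments scaled to transcript length in kilobases and to sequencing depth), which allows levels of different genes to be set side by side, and by rank within this library.

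The peritoneal cavity of an unchallenged mouse holds mainly large peritoneal macrophages and B cells, many of the latter of the B-1 kind, with fewer small macrophages, dendritic cells, T cells and mast cells. Large peritoneal macrophages carry F4/80, Icam2 and Tim4 (Timd4) at their surface and depend on the transcription factor Gata6, which is induced by retinoic acid made in the surrounding tissue. They clear dying cells, and they make complement, coagulation factors and lipid mediators. MHC class II molecules, made by B cells and by part of the macrophages and dendritic cells, hold peptides for CD4+ T cells and are brought to the surface with the help of the invariant chain Cd74.

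A set of MHC class II promoters is shown because this pathway had the highest median among the immune gene lists of the library, after ribosomal proteins and translation factors. Class II promoters are known for a conserved block that ends in a Y box, a reversed CCAAT box bound by the factor NF-Y. The stretches below are the 110 bases just before the RefSeq start site, in build GRCm38.p6, 5′ to 3′ on the gene's own strand, with GATTGG and its reverse complement CCAATC in capitals. Their positions were chr17:34287824-34287933 for H2-Aa, chr17:34305757-34305866 for H2-Eb1, chr17:34238795-34238904 for H2-Ob, chr17:34145139-34145248 for H2-DMb2, chr17:34092269-34092378 for H2-Oa, chr17:34153081-34153190 for H2-DMb1. All were on the plus strand except H2-Aa.
H2-Aa: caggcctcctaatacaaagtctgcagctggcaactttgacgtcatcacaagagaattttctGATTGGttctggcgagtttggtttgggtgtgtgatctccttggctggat
H2-Eb1: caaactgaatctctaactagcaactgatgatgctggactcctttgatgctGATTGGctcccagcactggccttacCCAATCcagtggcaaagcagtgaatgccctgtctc
H2-Ob: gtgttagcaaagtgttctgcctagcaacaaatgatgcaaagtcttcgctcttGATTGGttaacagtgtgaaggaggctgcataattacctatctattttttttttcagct
H2-DMb2: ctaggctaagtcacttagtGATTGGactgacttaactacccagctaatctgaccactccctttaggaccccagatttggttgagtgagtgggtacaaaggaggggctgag
H2-Oa: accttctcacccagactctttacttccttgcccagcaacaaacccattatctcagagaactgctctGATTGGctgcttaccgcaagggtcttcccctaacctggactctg
H2-DMb1: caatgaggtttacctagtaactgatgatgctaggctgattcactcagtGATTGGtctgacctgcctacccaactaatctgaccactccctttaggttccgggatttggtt

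GATTGG or its reverse complement lay within the 250 bases before the start of 7 of the 8 class II pathway genes with a RefSeq promoter entry, the exception being the protease gene Ctss, and in 16.6% of all 27025 genes with an entry. Counted by promoter, it lay in 7 of 9 for the class II genes and in 14.6% of all 32851 promoters of the same length. The motif began 49 bases before the start in H2-Aa, 60 in H2-Eb1, 58 in H2-Ob, 91 in H2-DMb2, 44 in H2-Oa, 62 in H2-DMb1 and 199 in H2-DMa, whose match lies outside the length shown and in 1 of its 2 listed promoters. The longer form CTGATTGG, which contains the shorter one, was found in 3 of the 8 genes (H2-Aa, H2-Eb1 and H2-Oa) and in 4.43% of all genes with an entry. Neither motif was limited to the class II genes: of 32 immediate early and stress genes with an entry, 14 held the shorter and 7 the longer form. These motifs were kept after several had been searched, and a match is a description of letters only. The genes that share the motif spanned levels from 2765 FPKM (H2-Aa) to 22.99 FPKM (H2-DMb1). The TATA box sequence TATAAA was present in 1 of these 8 genes and in 14.3% of all genes with an entry. In the same immediate early and stress genes the GC box sequence GGGCGG was found in 27 of 32, or 84.4%, against 35.4% of all genes with an entry.

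The highest symbol of the library was Gm20594, at 19624 FPKM. It was examined by sequence after its value was seen. Its annotated transcript (GENCODE M21, GRCm38, chr6:79817916-79818364, plus strand, 449 bases) aligned to the mitochondrial large ribosomal RNA gene mt-Rnr2 (chrM:1094-2675, plus strand) with 88.5% identity over 435 aligned bases, and the longest identical run was 65 bases. The pair below shows 30 aligned bases, from chr6:79818097-79818126 and chrM:1916-1945, with the 1 base that differs in capitals. It was picked among gap-free stretches for the fewest differences, at least 1 and none near the ends. The whole alignment held 41 mismatches, so the pair matches more closely than the rest.
Gm20594: aaacaaAaaccccgcctgtttaccaaaaac
mt-Rnr2: aaacaaGaaccccgcctgtttaccaaaaac

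No symbol beginning with mt- was listed for the library, so no level of mt-Rnr2 under that name could be set beside it. The ranks and shares given below hold no symbol with that prefix. Where the fragments assigned to Gm20594 came from was not tested. Of the annotated transcripts of the 100 highest genes, taken 1 per gene, no other one aligned to mt-Rnr2.

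The library listed 22788 usable symbols, and 9834 of them (43.2%) stood at 1 FPKM or more, 3830 (16.8%) at 10 or more and 506 (2.22%) at 100 or more. These shares are the background against which the gene lists below are read. Of the symbols at 100 FPKM or more, 92 reached 1000 FPKM, and 9995 symbols, 43.9% of the total, were listed at 0. The median over all symbols was 0.327 FPKM. The depth estimated from the lowest values was 2320000 fragments on the scale of the table. At that depth 1 FPKM on a transcript of 2 kb is about 5 fragments (95% exact Poisson interval 0.349 to 2.51 FPKM), and 100 FPKM about 465 fragments (91.2 to 110 FPKM). A level of 0 allows up to 0.646 FPKM on such a transcript, and 1.29 FPKM on 1 kb, at 3 fragments. Ranges given in parentheses below are such 95% intervals, for a level or a ratio, and intervals and floors cover counting error only. A 0 in a table of this kind can also be a failed estimate, so genes are said to be listed at 0.

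Abundance was concentrated in few genes. The 10 highest symbols held 14.7% of the summed FPKM, the 100 highest 53.9%, and 82 symbols together reached 50%. Reaching 90% took 2359 symbols. Lyz2, the lysozyme of macrophages, stood second at 6869 FPKM, followed by Rps27 at 6810, Apoe, the lipid carrier secreted by macrophages, at 6515, Rplp1 at 5369, Rps4x at 4891 and the acute-phase protein gene Saa3 at 4852. Rpl39 (4801 FPKM), Cd74 (4799 FPKM) and Tpt1 (4262 FPKM), which encodes a translationally controlled protein, closed the 10 highest. The next 15 ranks held 13 ribosomal protein genes from Rps28 (3987 FPKM) to Rps3a1 (3279 FPKM), the ferritin light chain gene Ftl1 (3473 FPKM) and B2m (3313 FPKM), the light chain of MHC class I.

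**Figure D1:**
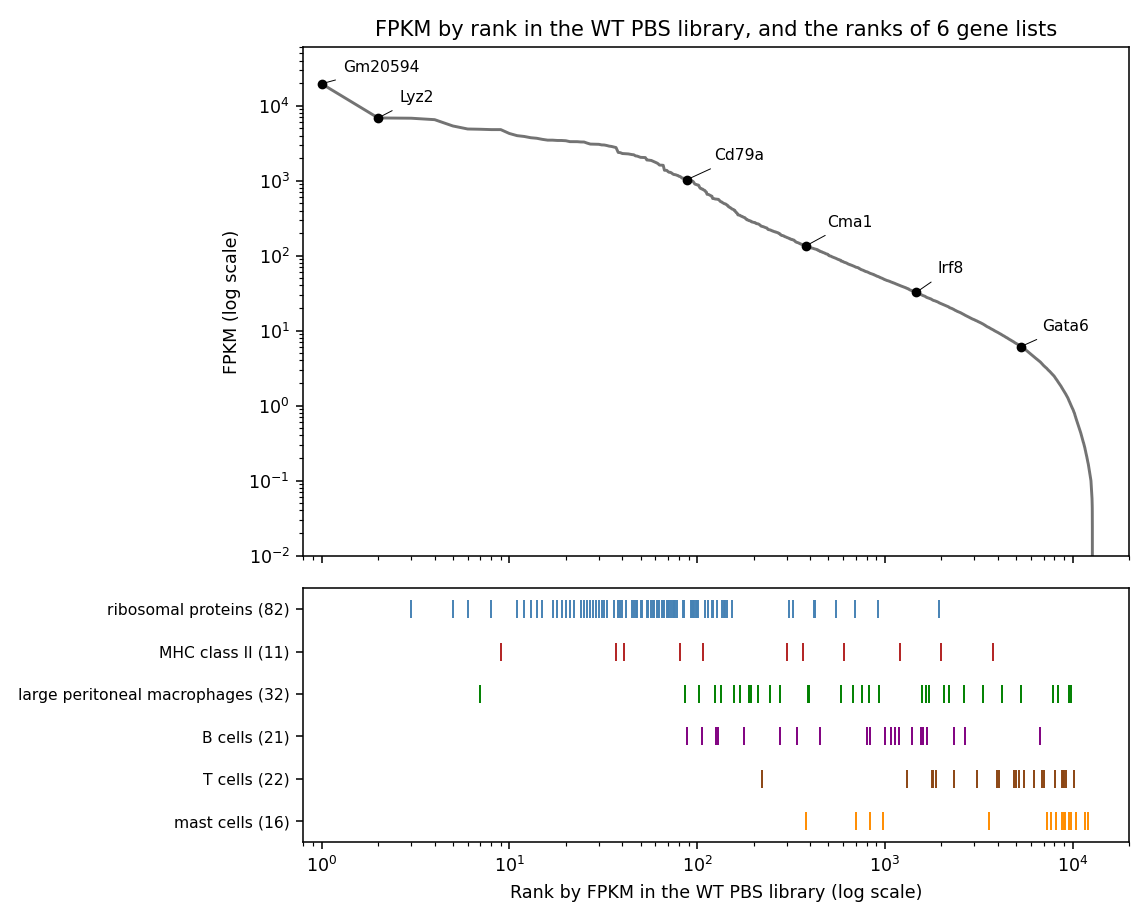
The upper panel plots the FPKM of every symbol above 0.01 against its rank in the WT PBS library, both on log scales, and the lower panel marks the ranks of the members of 6 gene lists listed above 0, their number in parentheses. Ribosomal protein genes fill most of the first 100 ranks, macrophage and B cell genes begin before rank 100, and most T cell and mast cell genes lie beyond rank 1000.

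Ribosomal protein genes made up 63 of the 100 highest symbols and 32.8% of the summed FPKM. The remaining 37 divided into 12 genes of macrophage secretion, lysosome and signalling with 6.30% of the sum, 4 MHC class II genes with 2.34%, 4 translation factors with 1.95%, 3 genes of iron storage and transport with 1.47%, 3 processed copies of ribosomal protein genes with 1.66%, 2 MHC class I genes with 0.924%, 3 other leukocyte genes (Crip1, Sh3bgrl3 and Srgn) with 0.726% and 2 actin cytoskeleton genes with 0.668%. Single symbols stood for mitochondrial rRNA-like sequence (Gm20594, 4.18%), the B cell receptor (Cd79a, 0.219%) and the immediate early genes (Dusp1, 0.190%). These classes were assigned after the ranks were known. Lars2, which encodes the mitochondrial leucyl-tRNA synthetase, stood at 2086 FPKM, rank 49.

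**Figure D2:**
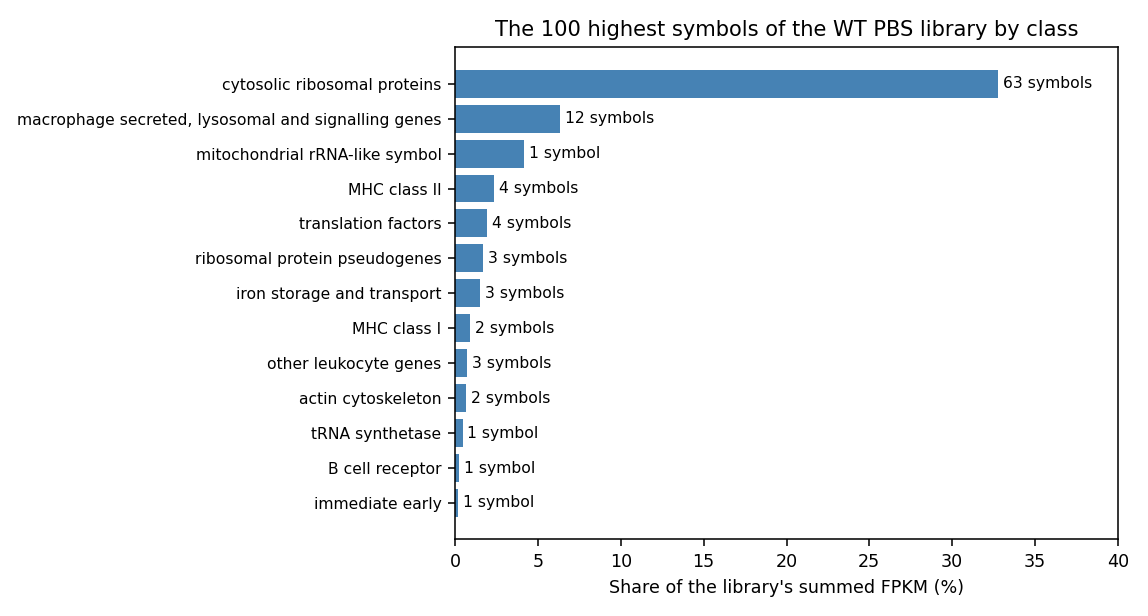
Bars give the share of the summed FPKM of the WT PBS library held by each class of the 100 highest symbols, in percent from 0, with the number of symbols beside each bar. Ribosomal proteins held 32.8% with 63 symbols, against 6.30% for the 12 macrophage genes.

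All 82 cytosolic ribosomal protein genes stood at 10 FPKM or more and 78 at 100 or more. Their median was 1760 FPKM and together they held 34.3% of the sum, but their levels ranged from 6810 FPKM (Rps27) to 23.7 FPKM (Rps15a), although most of these proteins are present in equal number in the ribosome. Low members included Rpl37 (52.8 FPKM), Rpl14 (92.3 FPKM) and Rpl30 (171 FPKM). Many such genes have processed copies of nearly the same sequence. Of the 63 among the 100 highest, 61 shared at least 100 bases at 95% identity or more with another annotated gene. So did 13 of the 36 other high genes with a transcript, which include the 3 copies named next. Matches to any gene on either strand were counted, so not every match is a processed copy. Of 3 such copies among the 100 highest, named after their values were seen, Gm15772 stood at 2891 FPKM beside 421 for its parent Rpl26 (99.5% identity over 438 bases). Gm12191 stood at 2862 FPKM beside 171 for Rpl30, and Rpl34-ps1 at 2033 FPKM beside 566 for Rpl34. Levels of single ribosomal protein genes are therefore uncertain where the counting could divide fragments between copies. Translation factors followed with a median of 212 FPKM over 24 genes, led by Tpt1, the elongation factor Eef1a1 (2276 FPKM), the ribosome-bound scaffold Gnb2l1 (1612 FPKM) and Eef2 (1009 FPKM).

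Among 16 lists of cell type markers, 2 had a median of 10 FPKM or more: large peritoneal macrophages at 64.5 FPKM and B cells at 48.0 FPKM. Of the 33 macrophage markers, 26 (78.8%) reached 10 FPKM and 14 (42.4%) reached 100, where 16.8% and 2.22% of all symbols did. Of the 21 B cell markers, 20 (95.2%) reached 10 FPKM and 8 (38.1%) reached 100. The lists were chosen with earlier results of these data known, and lists differ in how high their genes run in the cells they mark, so their order is not an order of cell numbers. In RNA from a mixture, fewer cells of a type and less RNA per cell cannot be told apart.

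**Figure D3:**
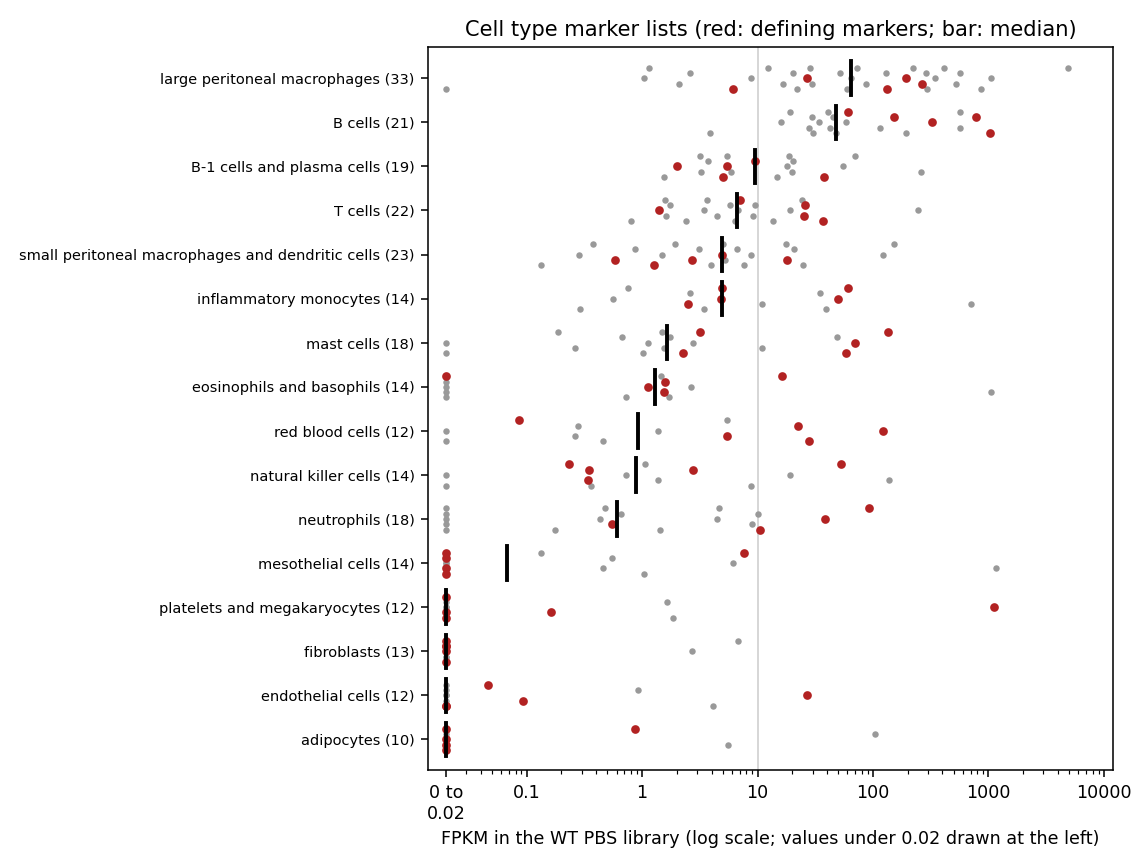
Each point is the FPKM of 1 marker gene in the WT PBS library on a log scale, in rows by cell type list with the number of members in parentheses, red for the defining markers and a black bar for the median. The macrophage and B cell medians lie to the right of 10 FPKM, with 7 and 1 members to the left of it, and the fibroblast, platelet, endothelial and adipocyte medians lie at 0.

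All 5 defining markers of large peritoneal macrophages were present. Emr1, the table's name for Adgre1, which encodes F4/80, stood at 266 FPKM, Icam2 at 195 FPKM (179 to 211), the complement receptor chain Itgam at 131 FPKM (125 to 138) and Timd4, a receptor for phosphatidylserine on dying cells, at 26.9 FPKM (22.6 to 31.9). The lineage factor Gata6 stood at 6.13 FPKM (4.48 to 8.17), above 76.7% of symbols in rank. Saa3 led the list at 4852 FPKM. It was followed by Alox15, the lipoxygenase of resident macrophages, at 1046 FPKM, fibronectin (Fn1) at 868, the B cell chemokine Cxcl13 at 572, thrombospondin (Thbs1) at 524, the LPS co-receptor Cd14 at 409 and the tetraspanin Cd9 at 346. Further genes of the peritoneal macrophage programme spread widely, with Prg4 (lubricin) at 293 FPKM, Selp at 73.1, Ltbp1 at 59.2, Tgfb2 at 28.2 and Garnl3 at 16.5. The retinoic acid receptor Rarb stood at 1.15 FPKM and Wt1 was listed at 0.

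B cell markers covered a narrower range, with quartiles of 30.1 and 194 FPKM against 16.5 and 288 FPKM for the macrophage markers. The receptor's signalling chains led, Cd79a at 1028 FPKM (994 to 1063) and Cd79b at 774 FPKM, a ratio of 1.33 (1.26 to 1.40 from counting error). Ly6d stood at 569 FPKM, the tetraspanin Cd37 at 564, CD20 (Ms4a1) at 325 and Faim3, which encodes the IgM receptor (Fcmr), at 194. The B lineage factors Pax5 (60.7 FPKM), Pou2af1 (58.0 FPKM), Spib (48.0 FPKM) and Ebf1 (27.7 FPKM) were also present. Of all members the lowest was Cr2, complement receptor 2 of follicular and marginal zone B cells, at 3.85 FPKM, while Fcer2a, which encodes the low-affinity IgE receptor CD23, stood at 29.4 FPKM. In the B-1 and plasma cell list the median was 9.48 FPKM. Of its 19 members, 9 reached 10 FPKM. Mzb1, a chaperone of antibody assembly, stood at 261 FPKM, Xbp1 at 69.2, Ptpn22 at 54.7 and Zbtb32 at 37.3. Among the lower members were the plasma cell genes Sdc1 (2.00 FPKM), Derl3 (1.56 FPKM) and Prdm1 (5.91 FPKM). Cd5 was also low, at 5.39 FPKM (3.54 to 7.93). Igj, which encodes the joining chain of secreted IgM and IgA, stood at 9.48 FPKM. Of 14 symbols in the list of immunoglobulin genes, only 2 were matched, so most of these genes have no rank or share here. Antibody classes are not analysed here.

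All 24 genes of B cell receptor signalling stood above 1 FPKM, with a median of 32.0 FPKM. After the receptor chains came the co-receptor tetraspanin Cd81 (205 FPKM), the phosphatase Ptpn6 (144 FPKM) and the kinases Lyn (129 FPKM), Syk (59.2 FPKM) and Btk (30.1 FPKM). Several of these, among them Cd81, Lyn and Syk, are also made by macrophages. Genes of B cell homing and survival had a median of 38.5 FPKM. Cxcl13 (572 FPKM), which draws B cells into the cavity, stood beside its receptor Cxcr5 (114 FPKM). The survival factor APRIL (Tnfsf13) stood at 50.2 FPKM and BAFF (Tnfsf13b) at 1.71 FPKM, a ratio of 29.2 (18.1 to 49.8), and their receptors Tnfrsf13b (38.5 FPKM) and Tnfrsf13c (38.2 FPKM) were nearly equal. The plasma cell receptor Tnfrsf17 was listed at 0.

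T cell markers had a median of 6.57 FPKM, and 7 of 22 reached 10. The CD3 chains stood at 36.8 (Cd3g), 25.8 (Cd3d) and 25.5 FPKM (Cd3e, 20.5 to 31.6), and Cd79a was 40.4 times Cd3e (32.6 to 50.5). Cd4, which macrophages can also carry, stood at 7.06 FPKM (5.26 to 9.29), Cd8a at 1.39 FPKM (0.660 to 2.53) and Cd8b1 at 5.77 FPKM. Cd2 reached 247 FPKM, the only member over 100, and it is also made by mouse B cells. Of the 5 defining markers of natural killer cells, 3 lay under 1 FPKM, Ncr1 at 0.345, Klrb1c at 0.339 and Eomes at 0.234 FPKM. The other two were the activating receptor Klrk1 at 2.78 FPKM (1.17 to 5.34) and the granule gene Nkg7 at 53.0 FPKM. Nkg7 and Ccl5, a further member at 138 FPKM, are also made by T cells.

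Of the mast cell proteases, 4 stood far above the rest of their list. Cma1, a chymase, was at 134 FPKM (120 to 149), Mcpt4 at 70.2, carboxypeptidase Cpa3 at 58.5 and the tryptase Tpsb2 at 49.2, and then came the histamine-forming enzyme Hdc at 10.9 FPKM. The tryptase Tpsab1 stood at 1.54 FPKM (0.406 to 3.81), and Tpsg1 was listed at 0. The receptors lay far below the 4 high proteases, with Kit at 3.14 FPKM (2.22 to 4.31) and Fcer1a at 2.26 FPKM (0.700 to 5.03), and the list's median was 1.64 FPKM. The eosinophil and basophil list shares its highest member, Alox15 (1046 FPKM), with the large peritoneal macrophage list. Among its other markers, Il5ra, a receptor that B-1 cells also carry, stood at 16.2 FPKM. Ccr3 (1.59 FPKM), Prg2 (1.55 FPKM) and Siglec5 (the table's name for Siglecf, 1.13 FPKM) were low, and Epx and Mcpt8 were listed at 0.

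Markers of neutrophils and inflammatory monocytes, cells that enter the cavity in inflammation, were uneven. The neutrophil list had a median of 0.602 FPKM, with the granule genes Camp, Ltf and Elane listed at 0 and Mmp8 at 0.552 FPKM (0.110 to 1.56). S100a8 at 92.5 FPKM (75.3 to 112), S100a9 at 38.7 and Csf3r at 10.6 were its highest members, and the 4 defining markers in the table had a median of 24.7 FPKM. Of the inflammatory monocyte markers, Ly6c2 stood at 2.51 FPKM (0.735 to 6.91), Ccr2 at 4.91 FPKM (3.44 to 6.74) and Chil3 at 4.85 FPKM, around the list's median of 4.88. Plac8 at 706 FPKM and F13a1 at 49.3 were higher, and Plac8 is also a lymphocyte gene. Small macrophage and dendritic cell markers had a median of 4.91 FPKM. Retnla, a secreted marker of small and alternatively activated macrophages, led at 153 FPKM, followed by Ccr7 at 123 FPKM, which lymphocytes share, Clec4a3 at 24.8 and Cd209a at 20.7. Of these 23 markers 5 lay under 1 FPKM, among them the dendritic cell genes Flt3 (0.586 FPKM), Xcr1 (0.284 FPKM) and Clec9a (0.132 FPKM). Irf4, also in the B-1 and plasma cell list, stood at 18.1 FPKM. Dpp4 stood at 8.82 FPKM, Batf3 at 5.17, Clec10a at 5.03 and Itgax at 1.27. Irf8, the factor that the Irf8KO mice of the study lack and that is intact by label here, stood at 32.4 FPKM (27.9 to 37.2).

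Markers of the structural cells around the cavity were mostly listed at 0. Of 13 fibroblast genes 11 were listed at 0, including all 5 defining ones (Col1a1, Col1a2, Pdgfra, Dcn and Lum). Among mesothelial markers Msln, Upk3b, Krt19 and Lrrn4 were listed at 0, Krt18 stood at 7.68 FPKM, and Slpi, a protease inhibitor that macrophages also make, at 1173 FPKM. Endothelial Cdh5 and Kdr were listed at 0, and Pecam1, which leukocytes share, stood at 26.6 FPKM. The platelet gene Pf4 stood at 1118 FPKM while Ppbp, Itga2b and Gp9 were listed at 0 and Gp1ba stood at 0.163 FPKM. Haemoglobin genes of red cells were present, Hbb-b1 at 121 FPKM, Hbb-b2 at 27.8 and Hba-a1 at 22.5. Their near-identical copies make the split between them uncertain. Adipocyte Plin1, Lep and Cidec were listed at 0, and Fabp4, also a macrophage gene, stood at 105 FPKM.

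**Figure D4:**
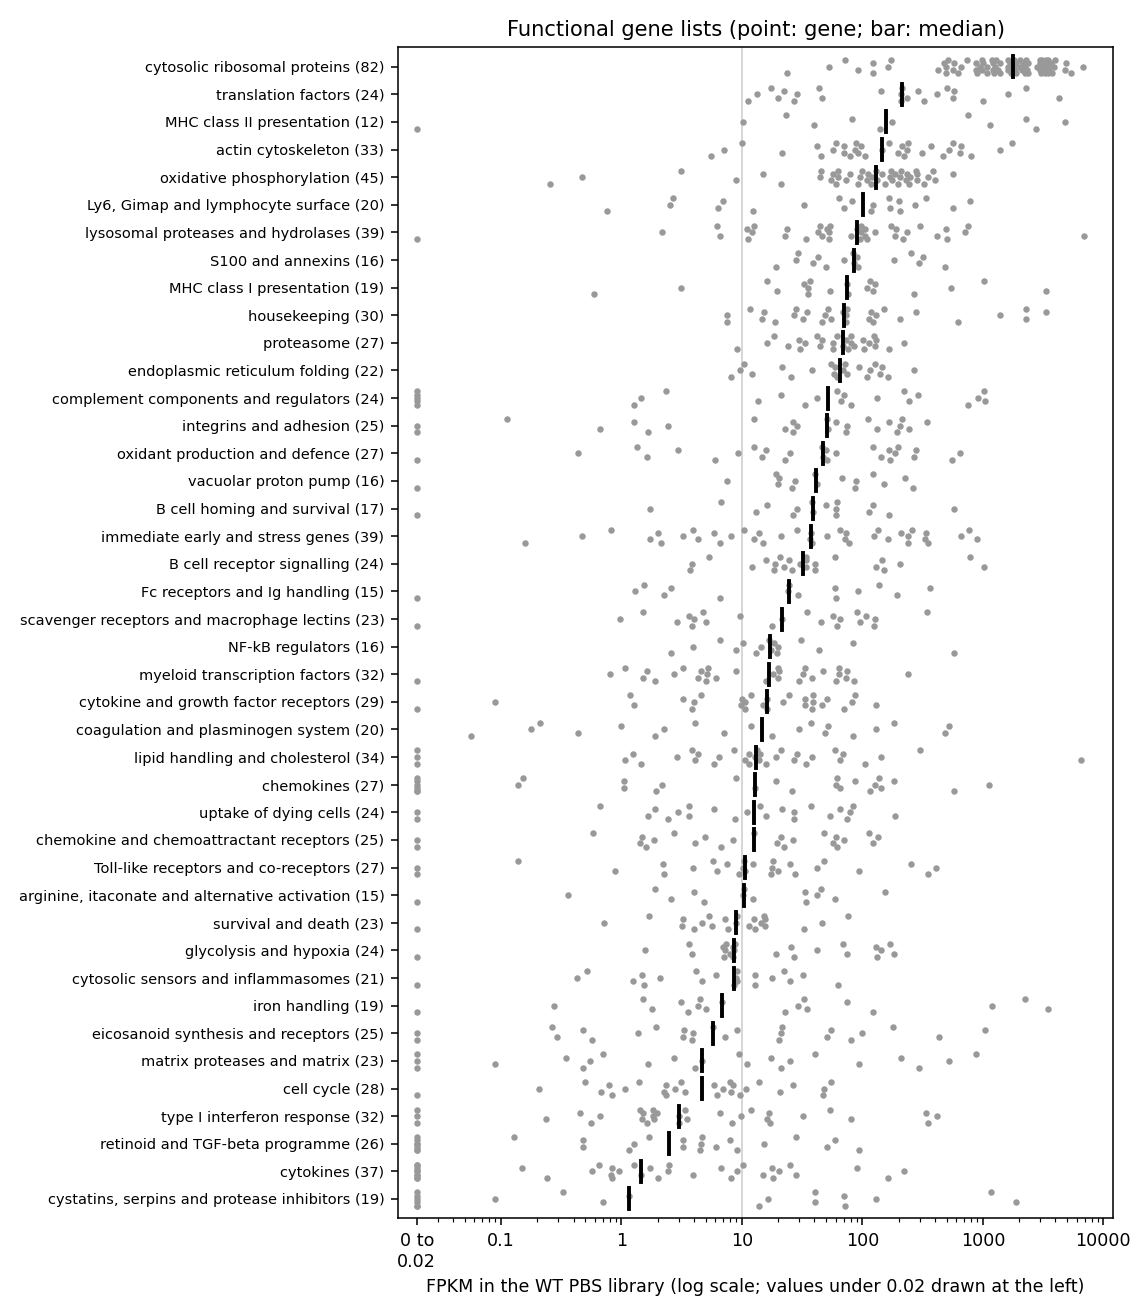
Each point is the FPKM of 1 gene in the WT PBS library on a log scale, in rows by functional list with the number of members in parentheses and a black bar for the median. Ribosomal proteins lie at the top with a median of 1760 FPKM, translation factors (212 FPKM) and MHC class II (158 FPKM) follow, and cytokines (1.45 FPKM) and protease inhibitors (1.14 FPKM) lie lowest among the lists drawn. The strain and sex checks and the immunoglobulin genes are not drawn.

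The MHC class II pathway had a median of 158 FPKM, and 11 of its 12 genes reached 10 FPKM. The invariant chain Cd74 stood at 4799 FPKM, the I-A chains H2-Aa at 2765 and H2-Ab1 at 2294, and the I-E beta chain H2-Eb1 at 1140. H2-Aa was 1.21 times H2-Ab1 (1.17 to 1.25). Ctss, which trims the invariant chain, stood at 757 FPKM. The peptide loading chains were lower, with H2-DMa at 176, H2-DMb2 at 82.1 and H2-DMb1 at 22.99 FPKM, as were the chains of H2-O, a modulator found mainly in B cells, at 140 (H2-Ob) and 39.8 FPKM (H2-Oa). Ciita, the master transactivator of the pathway, stood at 10.2 FPKM (8.57 to 11.99). H2-Ea-ps, the I-E alpha gene that C57BL/6 mice do not make into protein, was listed at 0. The class I pathway had a median of 74.6 FPKM, led by B2m (3313 FPKM), H2-D1 (1021 FPKM) and H2-K1 (540 FPKM), with the immunoproteasome subunit Psmb8 at 267 FPKM and the peptide transporter chains Tap1 at 36.4 and Tap2 at 32.7 FPKM.

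Complement genes split sharply between members. The 3 chains of C1q, which macrophages make, stood at 1033 (C1qb), 1012 (C1qa) and 746 FPKM (C1qc), and C1qa was 0.980 times C1qb (0.927 to 1.04), while C1qc was 0.723 times C1qb (0.682 to 0.766). Properdin (Cfp), which stabilises the alternative pathway convertase, stood at 908 FPKM, ficolin A (Fcna) at 288 and the complement receptor Vsig4 at 221. The convertase components were lower, with C4b at 80.9, Cfb at 61.2, C3 at 13.6 and C2 at 2.36 FPKM. The proteases and inhibitors that act with C1q were at or near 0: C1ra stood at 1.44 FPKM, and C1s1 and Serping1 were listed at 0. Coagulation genes included Thbs1 (524 FPKM), the plasminogen activator inhibitor Serpinb2 (129 FPKM), the urokinase receptor Plaur (84.1 FPKM) and the clotting factors F5 (51.8 FPKM), F10 (29.9 FPKM) and F7 (17.6 FPKM). Tissue factor (F3) stood at 2.28 FPKM.

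Of the lysosomal genes, 35 of 39 (89.7%) reached 10 FPKM, with a median of 89.9 FPKM. Below Lyz2 came Ctss, cathepsin D (Ctsd, 713 FPKM), Laptm5 (507 FPKM), prosaposin (Psap, 491 FPKM) and Lyz1 (415 FPKM). Lyz2 was 16.5 times Lyz1 (15.6 to 17.5), a pair that shares 95.8% identity over 1264 bases and whose fragments the counting could divide. Cathepsin K (Ctsk), the protease of osteoclasts, was listed at 0. The vacuolar proton pump had a median of 41.2 FPKM, with Atp6v0e at 265 FPKM and Atp6v0d2 listed at 0. Cystatin C (Cst3, 1869 FPKM) and Slpi led the protease inhibitors, a list whose stefins Stfa1, Stfa2 and Stfa3 were listed at 0.

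Lipid and iron genes each had a few very high members over a low median. Apoe stood at 6515 FPKM, and the next lipid genes were the phospholipid transfer protein Pltp (301 FPKM), the droplet coat protein Plin2 (142 FPKM) and Fabp4 (105 FPKM), over a median of 12.98 FPKM. Sqle, an enzyme of cholesterol synthesis, stood at 1.45 FPKM. In iron handling, Ftl1 (3473 FPKM) was 1.54 times Fth1 (2250 FPKM; 1.49 to 1.60), and transferrin (Trf) stood at 1198 FPKM, over a median of 6.84 FPKM. Ftl1 shares 99.6% identity over 910 bases with the annotated copy Ftl1-ps1, between which the counting could divide fragments. No such copy was found for Fth1. The iron exporter Slc40a1 stood at 1.79 FPKM and the haemoglobin scavenger receptor Cd163 at 1.51 FPKM.

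Eicosanoid genes were uneven. Alox15 stood at 1046 FPKM, 49.2 times Alox5 (21.3 FPKM; 41.6 to 58.7), and the helper protein Alox5ap stood at 432 FPKM, leukotriene C4 synthase (Ltc4s) at 179 and prostacyclin synthase (Ptgis) at 99.9. The constitutive cyclooxygenase Ptgs1 stood at 20.3 FPKM and the inducible Ptgs2 at 1.94 FPKM, a ratio of 10.5 (6.51 to 17.7). Among receptors for dying cells and their bridges, Timd4, the integrin chain Itgb1 (73.8 FPKM), Cd36 (65.5 FPKM) and Pros1 (37.3 FPKM) stood above the kinases Mertk (8.71 FPKM) and Axl (2.97 FPKM), and Tyro3 was listed at 0. Scavenger receptors were led by Cd5l (341 FPKM), which binds lipids and IgM, and included Clec4d (127 FPKM), Marco (107 FPKM) and Msr1 (96.3 FPKM). The mannose receptor Mrc1 stood at 3.99 FPKM and Siglec1 at 2.90 FPKM.

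Immediate early genes switch on within minutes of many kinds of stimulus. They were listed together with stress genes, and the combined list had a median of 37.8 FPKM. Of 39 immediate early and stress genes, 27 (69.2%) reached 10 FPKM and 13 (33.3%) reached 100. The phosphatase Dusp1 stood at 893 FPKM, Junb at 658, Ier3 at 350, Fos at 256 (242 to 271), Nr4a1 at 240, Egr1 at 238, Zfp36 at 208 and Atf3 at 124. Immediate early genes encode transcription factors, phosphatases and RNA-binding proteins that shape or limit later responses. The heat-inducible genes Hspa1a (0.474 FPKM) and Hspa1b (0.157 FPKM) lay under 1 FPKM, while the constitutive Hspa8 stood at 773 FPKM. Nfkbia, the inhibitor that NF-kB itself induces, stood at 577 FPKM, above Nfkbiz (82.9 FPKM), Tnfaip3 (43.8 FPKM) and the subunits Rel (30.8 FPKM), Rela (17.4 FPKM) and Nfkb1 (16.8 FPKM).

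Chemokines ranged from Pf4, Cxcl13 and Ccl6 (184 FPKM) through Ccl24 (141 FPKM), Cxcl2 (128 FPKM) and Ccl4 (116 FPKM) to Ccl2 (65.4 FPKM) and Ccl7 (19.3 FPKM), and 6 of 27 were listed at 0, among them Ccl11, Ccl17 and Cxcl5. Cytokines had a median of 1.45 FPKM. Mif stood at 222 FPKM, Osm at 163, Tnf at 90.2 (80.8 to 100), Il18 at 24.96, Il10 at 20.5, Il6 at 18.1 (13.4 to 24.0), Il1b at 17.7 (13.4 to 23.1) and Ifnb1 at 8.07 (4.39 to 13.5). Of 37 cytokines 9 were listed at 0, including Ifng, Il2, Csf2 and Vegfa. Type I interferon response genes had a median of 3.01 FPKM despite a few high members, Ifitm3 (417 FPKM), Ifi27l2a (349 FPKM) and Ly6e (338 FPKM), with Isg15 at 8.34, Ifit1 at 1.86 and Mx1 at 0.660 FPKM. Among Toll-like receptors, Tlr9 (19.7 FPKM), Tlr2 (18.1 FPKM), Tlr13 (17.7 FPKM), Tlr7 (10.3 FPKM) and Tlr4 (9.43 FPKM) were present, Tlr3 stood at 0.878 FPKM, and Tlr5 and Tlr11 were listed at 0. The co-receptor Cd14 was 43.3 times Tlr4 (35.0 to 54.3).

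Among transcription factors of the myeloid list, Nr4a1, Id2 (84.4 FPKM), Fli1 (74.4 FPKM), Bhlhe40 (64.5 FPKM), Spi1 (63.6 FPKM), which encodes PU.1, and Id3 (60.6 FPKM) led, and Spic was listed at 0. Retinoid and TGF-beta genes had a median of 2.46 FPKM. Tgfbi (92.8 FPKM), Ltbp1 and Tgfbr2 (50.4 FPKM) led, and the retinoic acid synthase Aldh1a2 stood at 3.23 FPKM while Aldh1a1 and Aldh1a3 were listed at 0. Genes of alternative activation included Retnla and Arg1 (58.7 FPKM), whereas Nos2, the inducible nitric oxide synthase of activated macrophages, was listed at 0. The oxidase subunits Cyba (639 FPKM) and Cybb (143 FPKM) stood at a ratio of 4.48 (4.14 to 4.84), and the peroxidase Gpx1 at 552 FPKM.

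Oxidative phosphorylation genes had a median of 130 FPKM, with 41 of 45 (91.1%) at 10 FPKM or more and Cox4i1 highest at 564. Glycolysis and hypoxia genes had a median of 8.65 FPKM, with Ldha at 184, Pkm at 170, Gapdh at 26.9 and Vegfa listed at 0. Gapdh shares 100% identity over 300 bases with the processed copy Gm2606, so the counting could divide its fragments and its level is uncertain. Actin cytoskeleton genes, with Tmsb4x at 1758 and Actb at 1377 FPKM, had a median of 145 FPKM, and 30 housekeeping genes, none at 0, a median of 70.9 FPKM. Cell cycle genes had a median of 4.64 FPKM, the highest being the inhibitor Cdkn1a at 54.9 FPKM and Ccnd3 at 47.9 FPKM, with the proliferation markers Top2a at 2.79, Cdk1 at 1.39 and Mki67 at 0.840 FPKM. Xist stood at 43.5 FPKM and the Y-linked genes Ddx3y, Eif2s3y, Kdm5d and Uty were listed at 0.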

How the data were processed

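The table holds FPKM values per gene symbol for 5 libraries, and the column of the WT PBS library alone was used. The authors deposited these FPKM values, and TopHat2 2.0.10, Cufflinks 2.2.1, Cuffnorm and BWA are listed, per the submitters' processing notes, with no role or order. What genome build, annotation and scaling between libraries were used was not given in the sources used here. Of 22815 symbols, 27 turned into dates by a spreadsheet were left out. Depth was estimated because the table gives no counts: among genes with 1 transcript of at least 1000 bases and values under 0.3 FPKM (202 genes), value times length gathered at 0.4305 FPKM on 1 kb, taken as 1 fragment, and 80.3% of the 173 products near 1 or 2 lay within 0.15 of a whole number. Cuffnorm scaling, if applied, would shift that estimate. Fragments summed over genes with lengths from GENCODE M21 came to 69.6% of it. Intervals are 95% exact Poisson intervals for a level and exact binomial (Clopper-Pearson) intervals for a ratio.

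The members and the 60 gene lists (16 of cell types, 44 of functions) were chosen with earlier results of these data known. Of 1222 list symbols 1208 matched, 8 by an older name. Named were the 25 highest genes, the 5 defining markers of each cell type, up to 6 of the highest members of each list, and other list members. Genes outside this rule were chosen after their values were seen. Promoters are RefSeq entries of GRCm38.p6, and transcripts of GENCODE M21 were compared with blastn 2.17.0. Python 3.11.15, pandas 2.3.3 and scipy 1.17.1 were used, and the code was tested on simulated data. Some list members are not reported here.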

Additional observations from a re-analysis of the deposited data

How the results depend on the processing

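The share of the summed FPKM in the 100 highest genes was 53.9%. It was 42.7% without ribosomal protein genes, 35.8% when each FPKM was weighted by transcript length, 54.0% over symbols at 1 FPKM or more and 52.0% without Gm20594, the last chosen after seeing the data. The number of symbols at 1 FPKM or more, 9834, stayed within 1.5 times under the other settings run (10852 at 0.5 FPKM, 8448 at 2 FPKM, 9313 without predicted genes). Cell type lists with a median of 10 FPKM or more numbered 6 rather than 2 when only the 5 defining markers were used, with T cells, mast cells, neutrophils and red blood cells added to macrophages and B cells. With the mean of log2(FPKM + 1) or of log2(FPKM + 0.1) they numbered 3, with B-1 and plasma cells added. Leaving out genes at 0 moved 14 of 60 list medians beyond the counting interval of their middle members, and the defining markers moved 8 of 16. No paired analysis was possible because the library is alone in its group, and no replicate could be left out. Depth limits single genes under about 1 FPKM, where a level rests on a few fragments.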

Other observations

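Several genes outside the lists stood high in the library and were chosen after their values were seen. Wfdc17, a secreted protease inhibitor-like protein of macrophages, stood at 2036 FPKM, rank 52. The selenium carrier Sepp1 stood at 446 FPKM, the phosphodiesterase-like lysosomal Smpdl3a at 301 FPKM, the aspartic protease Napsa at 263 FPKM and the cobalamin carrier Tcn2 at 236 FPKM. Itm2b stood at 634 FPKM, the leukocyte actin-binding protein gene Lsp1 at 529 FPKM and the mitochondrial carrier Ucp2 at 258 FPKM. Lymphocyte-associated genes outside the lists included Ltb (126 FPKM), Cd83 (110 FPKM), Cd38 (105 FPKM) and Fcrla (98.1 FPKM).

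Other such genes were Lrg1 at 174 FPKM, the fatty acid hydroxylase Cyp4f18 at 153 FPKM, Mcemp1 at 132 FPKM, the histone citrullinating enzyme Padi4 at 128 FPKM, Emilin2 at 127 FPKM and the endothelin receptor Ednrb at 102 FPKM. Cyp4f18, Mcemp1 and Padi4 are also neutrophil genes. Of the neutrophil list, S100a8 stood at 92.5 FPKM, S100a9 at 38.7, Csf3r at 10.6 and Lcn2 at 9.03, and 5 of 18 members were listed at 0, and the part of neutrophils in these levels was not tested. The cytokine signalling inhibitor Socs3 stood at 88.9 FPKM and the metallothionein Mt1 at 206 FPKM.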
